A study of Mus musculus with 8 samples.

Results

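The genes described here are 10 plasma membrane amino acid transporter genes: Slc7a1, Slc7a3, Slc7a5, Slc3a2, Slc1a1, Slc1a4, Slc1a5, Slc38a1, Slc38a2 and Slc6a9. They were taken by name from the gene tables, which list 40840 genes, and all 10 were found and passed the filter on low counts. RNA was sequenced from primary myofibroblastic hepatic stellate cells (pMF-HSCs) of wild-type male C57BL/6J mice aged 15 to 18 weeks. Stellate cells store vitamin A in the healthy liver, were sorted by the autofluorescence of their retinol, and turned myofibroblastic over 7 days of culture in DMEM with 5% fetal bovine serum. The control group (n = 4) received the vehicle DMSO and the OGTi group (n = 4) received OSMI-1 at 50 µM, both for 24 h. OSMI-1 is a small-molecule inhibitor of O-GlcNAc transferase (OGT), the enzyme that attaches the sugar O-GlcNAc to proteins inside the cell. Per the study's methods both groups were cultured with the antibiotics penicillin, streptomycin and gentamicin, and the labels name no transgene or deletion. Only 1 inhibitor at 1 dose and 1 time was measured, and the sources used here do not say how many mice gave each culture.

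Amino acids cross the plasma membrane through carriers that overlap in what they take. Some concentrate amino acids with sodium, others exchange 1 amino acid for another, and the CD98 transporters are built from a heavy chain that anchors a catalytic light chain. The genes of several carriers are known targets of ATF4, the transcription factor that is translated when eIF2alpha is phosphorylated, as happens in amino acid shortage or endoplasmic reticulum stress. The imported leucine, arginine and glutamine feed protein synthesis and mTORC1, and glycine and proline are the main building blocks of the collagens that myofibroblasts secrete.

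Each library held between 30068876 and 37372420 counts. A count was seen for 19035 to 20293 genes in 7 libraries and for 23746 genes in OGTi replicate 4. Treated and control cultures of the same replicate number were paired by the study, and the pairing was kept in the test across genes. Of 19963 genes tested, 3666 passed an adjusted p of 0.05 (edgeR's quasi-likelihood test), 1623 higher and 2043 lower in OGTi cultures. All 15 stellate and myofibroblast markers reached 1 TPM (a transcript's share of the library corrected for its length, scaled to a fixed total), with summed levels of 9165 to 18951 TPM in control and 7812 to 19472 TPM in OGTi cultures. Hepatocyte markers summed to at most 0.62 TPM in control and 1.72 TPM in OGTi cultures, with Hnf4a and Tat at 0 counts, whereas macrophage markers summed to 49.8 to 178 TPM and 90.2 to 231 TPM. Endothelial markers summed to 13.1 to 45.9 TPM and 24.4 to 32.5 TPM. Cholangiocyte markers, of which 4 of 8 reached 1 TPM, summed to 307 to 655 TPM and 129 to 563 TPM. Most of that sum came from Spp1 alone, so it does not measure the share of cholangiocytes. Of the markers tested, 3 of 15 stellate markers (20.0%) and 2 of 9 endothelial markers (22.2%) were called lower. Called higher were 1 of 9 macrophage markers (11.1%) and 1 of 5 hepatocyte markers (20.0%). Of 7 cholangiocyte markers, 1 was called higher and 1 lower (28.6%). Beside these shares, 18.4% of all genes tested were called. The part of any such other cells in the levels below was not tested. A pair of libraries stood apart: in control replicate 4, 250 genes lay at least 4-fold below every other library of the group, and 206 did so in OGTi replicate 1. The remaining 6 libraries had 1 to 25 such genes each. In OGTi replicate 1 long genes lay low, with a median of -0.48 in the longest of 5 length classes and 0.59 in the shortest, on the log2 scale against the other OGTi libraries. Ogt itself was at 4355 ± 587 scaled counts in control and 4137 ± 1557 in OGTi cultures (SD, n = 4), which says nothing about the enzyme's activity.

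The upstream sequence of the only 2 of these genes that passed the test, Slc3a2 and Slc1a4, is shown first, since both rose with treatment. Each is the stretch of 250 bases before the RefSeq transcription start, from RefSeq's table for GRCm38.p6, found once and without mismatch in GRCm39. Capitals mark GC boxes (GGGCGG, or CCGCCC on the other strand) and CCAAT boxes (CCAAT, or ATTGG on the other strand), both short letter patterns that promoters often hold.
Slc3a2, GRCm39 chr19:8691262-8691511, minus strand: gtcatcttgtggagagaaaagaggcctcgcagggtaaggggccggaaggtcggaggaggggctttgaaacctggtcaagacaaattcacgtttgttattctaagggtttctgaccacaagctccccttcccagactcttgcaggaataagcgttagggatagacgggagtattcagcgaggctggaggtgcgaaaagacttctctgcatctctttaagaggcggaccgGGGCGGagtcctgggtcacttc
Slc1a4, GRCm39 chr11:20282714-20282963, minus strand: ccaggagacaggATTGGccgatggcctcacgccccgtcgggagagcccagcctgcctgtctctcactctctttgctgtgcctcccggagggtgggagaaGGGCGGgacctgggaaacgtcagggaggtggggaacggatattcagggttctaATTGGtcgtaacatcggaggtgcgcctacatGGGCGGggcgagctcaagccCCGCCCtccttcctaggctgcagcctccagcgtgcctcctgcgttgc
The Slc3a2 window has a single GC box, 22 to 17 bases before the start, and a GC content of 53.6%. It lies inside the gene's span in GENCODE (chr19:8684245-8701108, minus strand), and the sequence before the outer end of that span was not examined. The Slc1a4 window has a GC content of 64.8%, with 3 GC boxes at 151 to 146, 67 to 62 and 47 to 42 bases before the start and 2 CCAAT boxes at 238 to 234 and 98 to 94 bases. Over 32851 such windows in the table, 32.7% held a GC box and 33.8% a CCAAT box on either strand. Entries were matched for 6 of the 10 genes (Slc7a1, Slc3a2, Slc1a1, Slc1a4, Slc38a2 and Slc6a9, 9 windows in all). A GC box occurred in 6 of the 9 windows and for all 6 genes, those that did not pass the test among them. A CCAAT box occurred in 1 of the 9 windows, that of Slc1a4. No entry was found under the symbols Slc7a3, Slc7a5, Slc1a5 and Slc38a1, so these genes have no window here. The letters TGATGNAA, a core of the amino acid response element that ATF4 binds, occurred on either strand in 0 of the 9 windows and in 3.45% of all windows. The E-box CACGTG occurred in 0 of the 9 and in 6.02% of all. The antioxidant response element TGACNNNGC, bound by NRF2, occurred on either strand in 4 of the 9 windows, those of Slc7a1, Slc38a2 and Slc6a9 (2 windows), and in 10.2% of all. These matches describe letters in a short window, and many such elements lie outside it.

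In control cultures the mean levels of the 10 transcripts ran from 0.198 to 411 TPM. Slc3a2, the CD98 heavy chain, led with 411 ± 104 TPM (SD, n = 4). Next came the neutral amino acid carrier Slc38a2 with 68.5 ± 15.4 TPM and the arginine and lysine carrier Slc7a1 with 23.4 ± 6.08 TPM. The control ranges of these 3 genes did not overlap those of their neighbours in the order. Slc1a4 (9.11 ± 2.50 TPM), Slc1a5 (8.69 ± 5.48 TPM), Slc6a9 (8.58 ± 3.38 TPM) and Slc7a5 (5.86 ± 1.92 TPM) followed, and the ranges of each neighbouring pair among them overlapped. Slc38a1 (1.365 ± 0.675 TPM) and Slc7a3 (0.653 ± 0.607 TPM) overlapped each other, and Slc1a1, with 0.198 ± 0.077 TPM, was the lowest.

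In OGTi cultures Slc3a2 stood at 1439 ± 162 TPM, again without overlap with the next gene, Slc38a2 at 65.3 ± 37.7 TPM. Slc7a1 (19.6 ± 5.83 TPM), Slc1a4 (18.5 ± 8.60 TPM), Slc6a9 (11.5 ± 6.69 TPM), Slc7a5 (8.25 ± 2.27 TPM) and Slc1a5 (6.92 ± 1.45 TPM) formed a run in which neighbours overlapped. Slc7a3 (0.625 ± 0.290 TPM), Slc1a1 (0.595 ± 0.328 TPM) and Slc38a1 (0.485 ± 0.276 TPM) made up the low end, below every value of Slc1a5. Slc38a1 was last in the OGTi order but not in the control order, and its range overlapped those of the 2 genes above it.

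**Figure D1:**
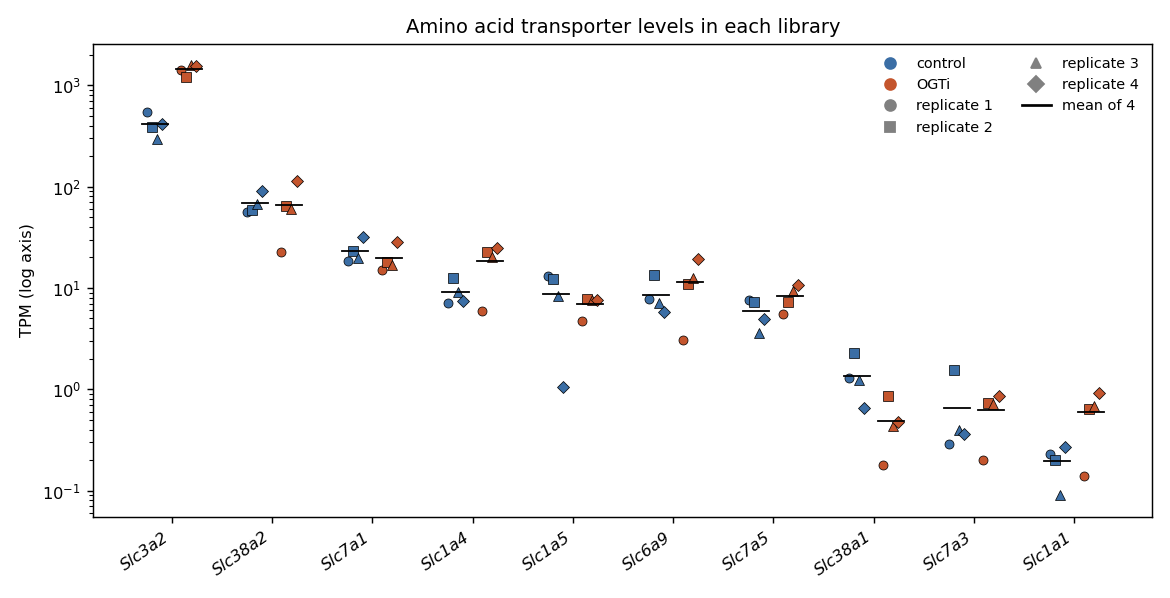
Levels of the 10 amino acid transporter transcripts in TPM on a log axis, 1 point for each of the 4 control and 4 OGTi libraries, control in blue and OGTi in orange, with a line at each mean. Slc3a2 lies above all other genes in both groups, at 411 TPM on average in control and 1439 TPM in OGTi cultures, while Slc1a1, Slc7a3 and Slc38a1 lie lowest.

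Across the 10 genes, Slc3a2 and Slc1a4 rose in OGTi cultures and 0 fell at an adjusted p of 0.05 (edgeR's quasi-likelihood test with Benjamini-Hochberg adjustment over all genes tested). In this comparison 18.4% of all genes tested passed, 8.13% higher and 10.2% lower, so that 2 of 10 (20.0%) is a share near that of all genes. At an unadjusted p under 0.05 there were 5 genes, the higher Slc7a5, Slc3a2, Slc1a1 and Slc1a4 and the lower Slc38a1, beside 31.8% of all genes (14.3% higher and 17.5% lower). DESeq2 called the same number, 4 higher and 1 lower, beside 24.3% of all genes (11.9% higher and 12.4% lower). The median log2 fold change of the 10 genes was 0.49, against 0.01 over all genes tested. In counts scaled between libraries, Slc7a5, Slc3a2 and Slc1a4 were higher in the treated culture of all 4 pairs, a pattern shown by 19.4% of all genes, but in TPM only Slc3a2 was. In scaled counts 0 of the 10 were lower in all 4 pairs, as 21.5% of all genes were, but in TPM Slc7a1 and Slc38a1 were. The groups' scaled counts did not overlap for Slc3a2 and Slc7a5, and they did not overlap for 23.5% of all genes tested.

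**Figure D2:**
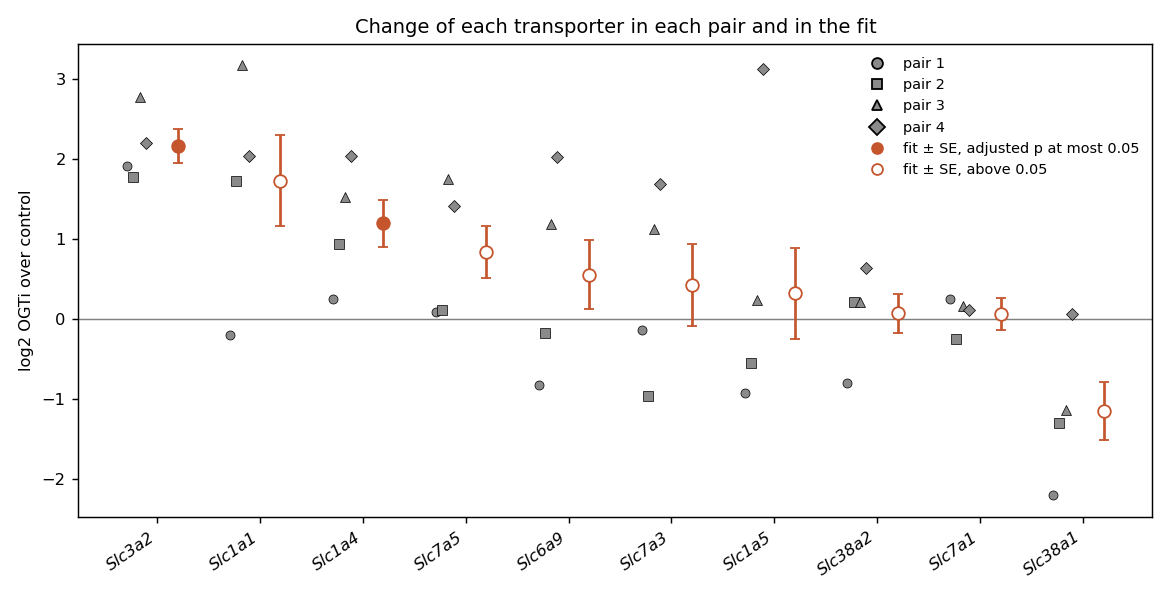
Log2 fold change of the 10 transcripts from edgeR, OGTi minus control, with a standard error derived from its test statistic and the 4 within-pair differences as points. Slc3a2 (2.16) and Slc1a4 (1.19) passed the test, and the points of pairs 3 and 4 lie above those of pairs 1 and 2 for most genes.

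Slc3a2 encodes the CD98 heavy chain (4F2hc), the glycoprotein that brings the light chains of several exchangers to the cell surface, and lies at chr19:8684245-8701108 on the minus strand of GRCm39 (GENCODE). Its counts, scaled by the trimmed mean of M values (TMM), were 28849, 20333, 15225 and 21616 in control replicates 1 to 4. They were 107906, 69237, 103655 and 98852 in OGTi replicates 1 to 4. Every treated culture lay above every control culture, with a wide gap between the groups. The transcript rose 4.46-fold, from 21506 ± 5620.0 to 94912 ± 17512 scaled counts (log2 fold change 2.16 ± 0.21 SE, adjusted p = 0.000294). The within-pair log2 differences were 1.90, 1.77, 2.77 and 2.19. The call held under all 13 other settings tried, with log2 fold changes of 1.83 to 2.31 and adjusted p from 2.17e-16 to 0.00535. Among all genes ordered by TPM, Slc3a2 moved from ranks 364, 521, 669 and 480 in the control libraries to 102, 102, 72 and 74 in the OGTi libraries. In bulk RNA of this kind, a change in the share of cells that hold a transcript and a change in the amount per cell cannot be told apart.

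Slc7a5 encodes LAT1, the light chain that pairs with CD98 to import leucine and other large neutral amino acids, and lies at chr8:122607884-122634433 on the minus strand. Its scaled counts were 517, 499, 237 and 333 in control replicates 1 to 4 and 551, 536, 797 and 884 in OGTi replicates 1 to 4. The groups did not overlap, but the gap was narrow, with control replicates 1 and 2 just under OGTi replicates 1 and 2. The means were 396 ± 135 and 692 ± 175 scaled counts (log2 fold change 0.83 ± 0.33 SE, adjusted p = 0.107), short of the threshold. In TPM the groups overlapped, at 3.59 to 7.59 in control and 5.59 to 10.8 in OGTi libraries. The adjusted p was under 0.05 with DESeq2 (0.0495), with no low-count filter (0.0377), with upper-quartile scaling (0.0473) and with the gene length trend removed (0.0446). The log2 fold change was smaller in limma-trend on TPM (0.44 with 1 added and 0.51 with 0.1 added, adjusted p = 0.351 and 0.329) and without replicate 3 (0.53, adjusted p = 0.399). Pairs 1 and 2 differed by 0.09 and 0.10 on the log2 scale and pairs 3 and 4 by 1.75 and 1.41.

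Heavy chain and LAT1 light chain were compared within each library. On the log2(TPM + 1) scale the difference of Slc7a5 from Slc3a2 was -5.92 ± 0.26 in control and -7.31 ± 0.30 in OGTi cultures, lower in 4 of 4 pairs and without overlap. The difference between groups was -1.39, with p = 0.0286 in a two-sided exact permutation test, the smallest that 4 against 4 can give, and an adjusted p of 0.114 over the 4 ratios tested. This test does not keep the pairs together, and a sign flip within pairs gave an exact p of 0.125 (adjusted p = 0.333), the smallest that 4 pairs can give. As plain TPM ratios, Slc3a2 exceeded Slc7a5 72.1, 52.6, 82.7 and 83.9 times in control replicates 1 to 4 and 253, 167, 168 and 144 times in OGTi replicates 1 to 4.

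Among the other light chains that pair with CD98, Slc7a8 and Slc7a11 rose. Slc7a8, which encodes LAT2, rose from 28.3 ± 17.6 to 119.6 ± 63.4 scaled counts (4.11-fold, adjusted p = 0.00479). Slc7a11, the cystine and glutamate exchanger xCT, rose from 509 ± 181 to 1567 ± 313 scaled counts (3.18-fold, adjusted p = 0.00518). Slc7a6, which encodes y+LAT2 and was the most abundant light chain, was at 4350.5 ± 299.6 and 3682 ± 237 scaled counts (log2 fold change -0.24 ± 0.19 SE, adjusted p = 0.436), with no overlap between groups, and its log2 fold change depended on the scale. It came to 0.01 with the gene length trend removed, but to -0.59 (adjusted p = 0.0371) and -0.61 (0.0405) in limma-trend on TPM with 1 and 0.1 added. Slc7a7, which encodes y+LAT1, was at 327 ± 50.8 and 235 ± 87.5 scaled counts (adjusted p = 0.195), and Slc7a10 (Asc-1) had a count in 1 library and was not tested. Summed over these light chains and Slc7a5, the level was 73.4, 73.4, 65.7 and 74.8 TPM in the control libraries and 47.0, 62.2, 60.7 and 58.7 TPM in the OGTi libraries. Slc3a2 thus stood at 7.46, 5.23, 4.52 and 5.57 times its summed partners in control and at 30.0, 19.6, 25.9 and 26.4 times in OGTi cultures. All OGTi values of this ratio lay above all control values.

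**Figure D3:**
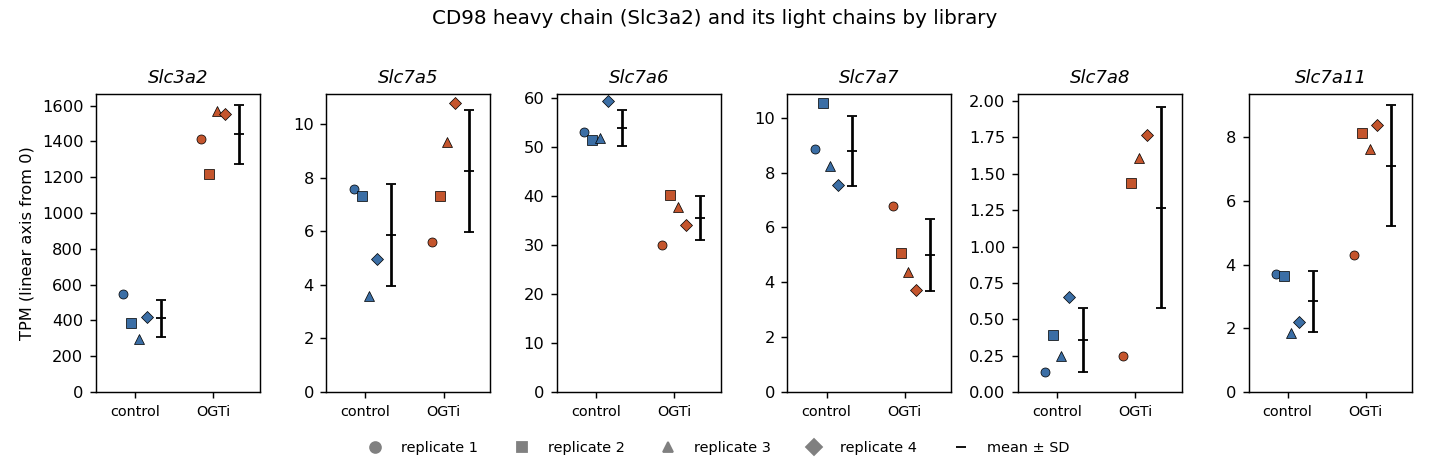
TPM of the CD98 heavy chain Slc3a2 and of 5 light chains in the 4 control and 4 OGTi libraries, each gene on its own linear axis from 0, with a bar for the mean and SD. The Slc3a2 points do not overlap between groups, and its level was a median of 5.40 times the summed light chains in control and 26.2 times in OGTi libraries.

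Slc1a4 and Slc1a5 encode ASCT1 and ASCT2, sodium-dependent exchangers of alanine, serine and cysteine. ASCT2 also carries glutamine. Slc1a4 lies at chr11:20252180-20282774 on the minus strand and had 549, 972, 677 and 567 scaled counts in control replicates 1 to 4. It had 654, 1864, 1952 and 2319 in OGTi replicates 1 to 4. OGTi replicate 1 fell within the control range, whereas the other 3 treated cultures lay above it. The transcript rose 2.28-fold, from 691 ± 195 to 1697 ± 723 scaled counts (log2 fold change 1.19 ± 0.30 SE, adjusted p = 0.0207), and the within-pair differences were 0.25, 0.94, 1.53 and 2.03. In TPM, pair 1 went the other way, at 7.16 in control and 5.89 in OGTi replicate 1. The call was lost without replicate 2 (adjusted p = 0.0511), replicate 3 (0.0987) or replicate 4 (0.0954), and in limma-trend on log2(TPM + 1) (0.112) and log2(TPM + 0.1) (0.103), whereas without replicate 1 the log2 fold change was 1.50 (0.00974).

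Slc1a5 lies at chr7:16515265-16532731 on the plus strand. Its scaled counts were 662, 625, 413 and 53.0 in control replicates 1 to 4, and 349, 427, 484 and 465 in OGTi replicates 1 to 4. Control replicate 4 lay far below the other 7 libraries, and the treated cultures lay inside the control range. Slc1a5 was the only 1 of the 10 genes among the 250 that lay at least 4-fold below every other control library in that culture. The means were 438 ± 279 and 431 ± 59.8 scaled counts (log2 fold change 0.32 ± 0.57 SE, adjusted p = 0.755). The direction rested on replicate 4, since the log2 fold change was -0.40 without it and -0.02 without the replicate block.

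Summed over both exchangers, the level was 20.2, 24.9, 17.5 and 8.57 TPM in control and 10.6, 30.3, 27.9 and 32.6 TPM in OGTi replicates 1 to 4, with overlapping groups. The difference of Slc1a4 from Slc1a5 on the log2(TPM + 1) scale was 0.35 ± 1.20 in control and 1.15 ± 0.61 in OGTi cultures (two-sided exact permutation p = 0.314, adjusted p = 0.514). Slc1a4 passed the test and Slc1a5 did not, and this ratio, pooled over all pairs, did not show that they differed in their response. Control replicate 4 stood apart in the ratio too, and without replicate 4 the difference between groups was 1.21 against 0.80 with it (exact permutation p = 0.1, the smallest that 3 against 3 can give).

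Slc38a2 and Slc38a1 encode SNAT2 and SNAT1, sodium-coupled carriers of glutamine, alanine and other small neutral amino acids (system A). The genes are neighbours on chromosome 15 and lie 43414 bases apart, both on the minus strand, Slc38a1 at chr15:96469298-96541851 and Slc38a2 at chr15:96585266-96597894. Slc38a1 had 195, 351, 186 and 100.2 scaled counts in control replicates 1 to 4 and 42.0, 142, 83.9 and 105 in OGTi replicates 1 to 4. In pairs 1 to 3 the treated culture was the lower, in pair 4 it was not, and the groups overlapped. The means were 208 ± 104 and 93.1 ± 41.6 scaled counts (log2 fold change -1.15 ± 0.37 SE, adjusted p = 0.0537), just short of the threshold. The adjusted p was under 0.05 with DESeq2 (0.0279), library totals (0.0246), limma-trend on TPM with 1 (0.0330) or 0.1 added (0.0457), no low-count filter (0.00820) and without replicate 4 (0.0289). The within-pair log2 differences were -2.20, -1.30, -1.14 and 0.06. At a mean length of 7876 bases it is the longest of the 10 transcripts, and with the gene length trend removed its log2 fold change was -0.95 (adjusted p = 0.0916).

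Slc38a2 had 5036, 5301, 5819.5 and 7921 scaled counts in control replicates 1 to 4 and 2897, 6133, 6722 and 12277 in OGTi replicates 1 to 4. The treated cultures held both the lowest and the highest value of the 8, in replicates 1 and 4. The means were 6019 ± 1309 and 7007 ± 3895 scaled counts (log2 fold change 0.07 ± 0.25 SE, adjusted p = 0.888), and the sign turned with library totals (-0.13), with TPM (-0.25 and -0.26) and without replicate 4 (-0.11). Summed TPM of the pair were 57.8, 61.7, 68.9 and 91.1 in control and 22.7, 64.7, 60.7 and 115 in OGTi replicates 1 to 4. The difference of Slc38a1 from Slc38a2 on the log2(TPM + 1) scale was -4.90 ± 0.67 in control and -5.29 ± 0.81 in OGTi cultures (two-sided exact permutation p = 0.486, adjusted p = 0.514). Slc38a1 lay at 0.18 to 2.28 TPM, and the difference between groups, -0.39 with 1 TPM added, was -1.07 with 0.1 TPM added and -1.03 from counts per library total (exact permutation p = 0.143 for both). Leaving out a replicate moved it between -0.64 (without replicate 1) and -0.21 (without replicate 2).

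Slc7a1 and Slc7a3 encode CAT-1 and CAT-3, carriers of the cationic amino acids arginine, lysine and ornithine (system y+). Slc7a1, at chr5:148264220-148336848 on the minus strand, had 2624, 3251, 2679.6 and 4439 scaled counts in control replicates 1 to 4 and 3105, 2724, 2982 and 4770.3 in OGTi replicates 1 to 4. Replicate 4 was the highest in both groups, and the groups overlapped throughout. Of the 10 genes it had the smallest standard error, with means of 3248 ± 843 and 3395 ± 930.4 scaled counts (log2 fold change 0.06 ± 0.20 SE, adjusted p = 0.872), and its sign turned with library totals (-0.13) and with TPM (-0.25 and -0.26). Slc7a3, at chrX:100122745-100129631 on the minus strand, had 19.3, 87.9, 23.0 and 18.3 scaled counts in control replicates 1 to 4 and 17.4, 44.7, 50.8 and 59.7 in OGTi replicates 1 to 4. Control replicate 2 stood above all other libraries. The means were 37.1 ± 33.9 and 43.1 ± 18.2 scaled counts (log2 fold change 0.42 ± 0.51 SE, adjusted p = 0.630), and the sign turned without replicate 4 (-0.0034). The difference of Slc7a1 from Slc7a3 on the log2(TPM + 1) scale was 3.91 ± 0.56 in control and 3.64 ± 0.28 in OGTi cultures (two-sided exact permutation p = 0.514, adjusted p = 0.514). The difference between groups was -0.27, between -0.43 (without replicate 2) and -0.15 (without replicate 4) when a replicate was left out.

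Slc1a1 encodes EAAC1 (EAAT3), a carrier of glutamate, aspartate and cysteine, and lies at chr19:28812449-28891360 on the plus strand. It had the fewest reads of the 10 in control cultures, with 16.5, 14.9, 6.45 and 19.3 scaled counts in control replicates 1 to 4 and 14.3, 50.3, 61.8 and 80.4 in OGTi replicates 1 to 4. OGTi replicate 1 lay inside the control range and the other 3 treated cultures above it. The means were 14.3 ± 5.53 and 51.7 ± 27.8 scaled counts (log2 fold change 1.72 ± 0.57 SE, adjusted p = 0.0620). The adjusted p was under 0.05 with DESeq2 (0.0215), no low-count filter (0.0124), no replicate block (0.0458), the gene length trend removed (0.0376), upper-quartile scaling (0.0340) and without replicate 1 (0.0228). The log2 fold change was smaller in limma-trend on TPM (0.39 with 1 added and 1.09 with 0.1 added, adjusted p = 0.0823 and 0.119), and it was 1.26 without replicate 3 (adjusted p = 0.232). Within-pair log2 differences were -0.20, 1.72, 3.16 and 2.03.

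Slc6a9 encodes GlyT1, the sodium- and chloride-dependent glycine carrier, and lies at chr4:117691703-117732395 on the plus strand. It had 484, 839, 430.0 and 356 scaled counts in control replicates 1 to 4 and 272, 739, 982 and 1446 in OGTi replicates 1 to 4. The treated cultures spanned a wider range than the controls on both sides. The means were 527 ± 214 and 860.0 ± 489 scaled counts (log2 fold change 0.55 ± 0.43 SE, adjusted p = 0.429). The within-pair log2 differences ran from -0.83 in pair 1 to 2.02 in pair 4, and the log2 fold change was 1.02 without replicate 1 and 0.07 without replicate 4.

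The treated cultures of replicates 3 and 4 stood higher against their controls than those of replicates 1 and 2. The median within-pair log2 difference of the 10 was -0.17 in pair 1, -0.04 in pair 2, 1.16 in pair 3 and 1.85 in pair 4, against medians over all genes of 0.00, 0.00, -0.03 and 0.03. In scaled counts, the treated culture of pair 1 was higher for 4 of the 10 genes, in pair 2 for 5, in pair 3 for 9 and in pair 4 for all 10. For 7 of the 10 the lowest of the 4 differences was that of pair 1, as for 29.8% of all genes, and for 6 of the 10 the highest was that of pair 4, as for 26.7% of all genes. Slc3a2 was higher by at least 1.77 on the log2 scale in each of the 4 pairs. Pair 1 holds OGTi replicate 1 with its length-dependent levels. Pair 4 holds control replicate 4, and OGTi replicate 4, whose levels leaned the other way with length (medians of 0.18 in the longest and -0.37 in the shortest class). The part of these libraries in the pattern was not tested.

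The amino acid transporters outside these 10 were described from a list of 44 genes. Of these, 32 were tested, 6 rose and 3 fell (28.1%, against 18.4% of all genes), and their median log2 fold change was 0.35. The number that rose was 6 under all 13 other settings, whereas 5 fell with library totals and DESeq2, and 6 with no low-count filter and with TPM. Ctns, which releases cystine from lysosomes, went from 1037 ± 115 to 2775 ± 225 scaled counts (log2 fold change 1.42 ± 0.21 SE, adjusted p = 0.00182). Slc66a1 (PQLC2), which releases cationic amino acids from lysosomes, went from 2619 ± 228 to 5809.9 ± 909 (1.14 ± 0.20 SE, adjusted p = 0.00427). Slc38a9, Slc36a1 and Slc38a7, also found on lysosomes, did not pass the test. Their log2 fold changes were 0.47 (adjusted p = 0.179), -0.47 (adjusted p = 0.222) and -0.08 (adjusted p = 0.849). Slc7a14 and the neutral amino acid carrier Slc6a19 also rose, by 2.36 and 1.81 on the log2 scale. The genes that fell were Slc43a1, which encodes the leucine carrier LAT3, from 133 ± 9.46 to 21.2 ± 11.6 scaled counts (adjusted p = 0.00272), Slc38a4, which encodes SNAT4, from 49.6 ± 10.6 to 9.27 ± 4.21 (adjusted p = 0.0100), and Slc36a4, from 701 ± 90.8 to 349 ± 99.5 (adjusted p = 0.0134, but 0.0632 without replicate 3). Slc7a2, the other cationic carrier of the CAT family (log2 fold change -1.08, adjusted p = 0.128, but 0.0468 with no low-count filter and 0.0255 without replicate 2), and Slc43a2, which encodes LAT4 (204 ± 54.6 and 111 ± 60.6 scaled counts, adjusted p = 0.0729), did not pass the test. Slc43a2 passed with library totals (0.0398), DESeq2 (0.0476), no low-count filter (0.0211) and TPM with 1 added (0.0435).

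The carriers of the inner mitochondrial membrane formed a list of 10 genes, all tested, of which 2 rose and 4 fell (60.0%, against 18.4% of all genes), with a median log2 fold change of -0.48. Slc25a15, the ornithine carrier, fell from 516 ± 85.4 to 144 ± 60.7 scaled counts (log2 fold change -1.94 ± 0.28 SE, adjusted p = 0.00173). Sfxn1, the serine carrier, fell from 3418 ± 178 to 1442 ± 405 (-1.29 ± 0.22 SE, adjusted p = 0.00349). The aspartate and glutamate carriers Slc25a13 (-1.19 ± 0.30 SE) and Slc25a12 (-0.74 ± 0.22 SE) fell as well. The genes that rose were Slc25a29, a carrier of basic amino acids, from 159 ± 31.9 to 453 ± 103 scaled counts (1.50 ± 0.29 SE, adjusted p = 0.00606), and the glycine carrier Slc25a38 (1.31 ± 0.32 SE, adjusted p = 0.0175). Without replicate 3, and likewise without replicate 4, 1 rose and 2 fell, with the calls of Slc25a12, Slc25a13 and Slc25a38 lost. Slc25a12 also lost its call with upper-quartile scaling (adjusted p = 0.0938), no replicate block (0.0531), the length trend removed (0.157) and without replicate 2 (0.106), Slc25a13 without replicate 1 (0.0535), and Slc25a38 without replicate 1 (0.0650) and with TPM plus 1 (0.0508).

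**Figure D4:**
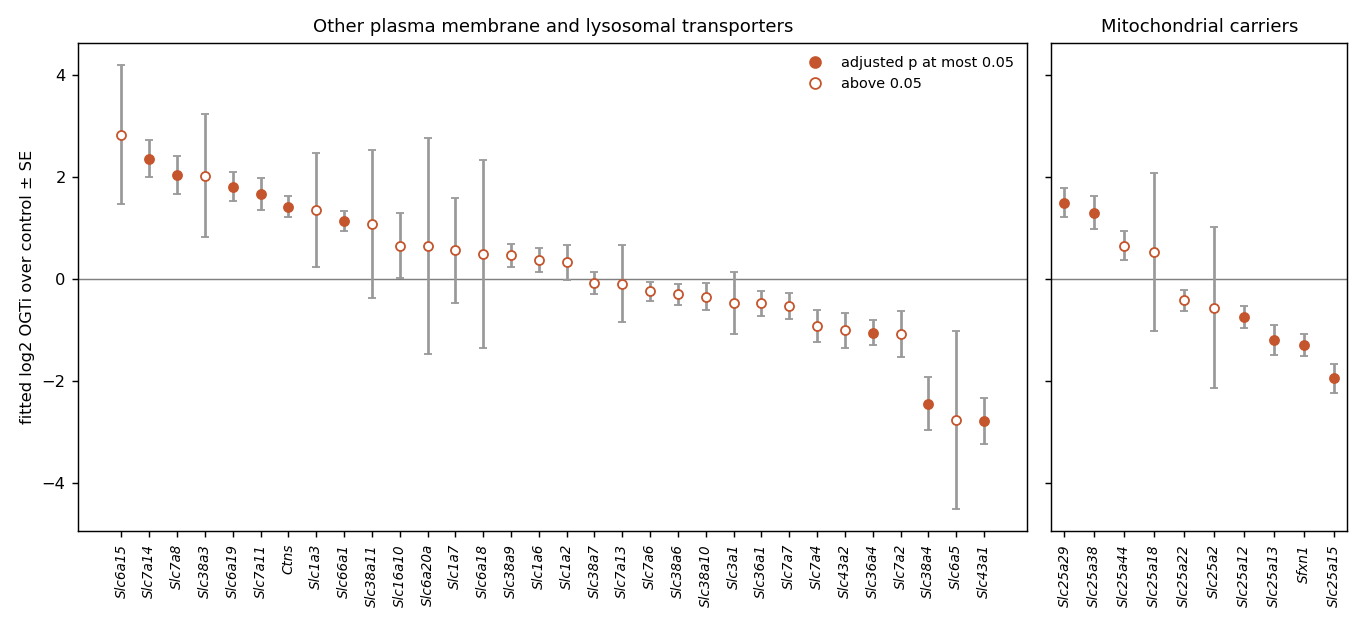
Log2 fold change, OGTi minus control, with its standard error, of the tested transporters outside the 10 genes and of the mitochondrial carriers. Ctns (1.42) and Slc66a1 (1.14) lie above 0, and Slc43a1 (-2.78), Slc38a4 (-2.43), Slc25a15 (-1.94) and Sfxn1 (-1.29) lie below it.

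Of 24 genes of the amino acid response driven by ATF4, all tested, 9 rose and 0 fell (37.5%, against 18.4% of all genes called, 8.13% higher and 10.2% lower), with a median log2 fold change of 0.66. Atf4 went from 5882 ± 2386 to 12909.8 ± 5370.4 scaled counts (log2 fold change 1.11 ± 0.19 SE, adjusted p = 0.00339). Atf3, a stress-induced transcription factor, rose by 3.06 on the log2 scale, the glutathione-degrading enzyme Chac1 by 2.49, and Ddit3, which encodes CHOP, by 2.27. Trib3, Psph, Nupr1, Cth and Slc7a11 made up the other 5. Asns, which encodes asparagine synthetase and is a textbook ATF4 target, had a log2 fold change of 0.55 ± 0.26 SE and did not pass the test (adjusted p = 0.170, but 0.0370 without replicate 2).

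Among 9 genes of the eIF2alpha kinases and phosphatase subunits, 1 rose and 2 fell (33.3%, against 18.4% of all genes), with a median of 0.00. Ppp1r15a (GADD34), the subunit that directs dephosphorylation of eIF2alpha, rose by 1.75 ± 0.24 SE on the log2 scale (adjusted p = 0.00123). Eif2ak2 (PKR) fell by 1.08 and Gcn1, a partner of the amino acid sensing kinase GCN2, by 0.70 (adjusted p = 0.0178 and 0.0497), whereas Eif2ak4, which encodes GCN2, had a log2 fold change of -0.40 (adjusted p = 0.456). Gcn1 lost its call whichever replicate was left out (adjusted p from 0.0667 to 0.188), and also with upper-quartile scaling (0.106), no replicate block (0.0556) and the length trend removed (0.110). Eif2ak2 lost its call with the length trend removed (0.0694) and without replicate 3 (0.119) or 4 (0.0900), so that 0 of the list fell in these 3 fits. With upper-quartile scaling, no replicate block and without replicate 1 or 2, 1 fell. The number that rose was 2 with upper-quartile scaling, with the length trend removed and without replicate 1.

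Of 33 genes that sense amino acids for mTORC1, 2 rose and 2 fell (12.1%, against 18.4% of all genes), with a median of 0.10. The balance varied with the settings, at 5 higher and 2 lower with upper-quartile scaling and DESeq2, but 1 higher and 5 lower with TPM. The number higher was also 4 without replicate 1, with either other filter and with the length trend removed, and 1 with library totals and without replicate 3 or 4. Rragc, a Rag GTPase, rose by 1.29 ± 0.21 SE on the log2 scale and Flcn, folliculin, by 0.85 ± 0.22 SE, while Mlst8 fell by 1.16 and Depdc5, a subunit of GATOR1, by 1.14. Flcn lost its call with library totals (adjusted p = 0.0527), with TPM (0.128 and 0.124) and without replicate 2 (0.0598), 3 (0.147) or 4 (0.0832), and Mlst8 without replicate 3 (0.0604). Mtor had a log2 fold change of -0.14 (adjusted p = 0.744).

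Of 28 enzymes that convert amino acids, 27 were tested, 5 rose and 0 fell (18.5%, near the 18.4% of all genes called in either direction), with a median of 0.34. Without replicate 2, 10 rose, and 2 fell with library totals, no low-count filter or TPM plus 0.1. Of those that rose, 3 make glutathione from glutamate, cysteine and glycine: Gclc rose by 1.76 ± 0.22 SE on the log2 scale (adjusted p = 0.000843), Gclm by 1.66 (adjusted p = 0.00548) and Gss by 1.16 (adjusted p = 0.00299). Glul, glutamine synthetase, rose by 1.35 ± 0.21 SE (adjusted p = 0.00227) and Odc1, the first enzyme of polyamine synthesis, by 1.02 (adjusted p = 0.0100).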

How the data were processed

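The authors prepared DNBSEQ stranded mRNA libraries after oligo dT enrichment, sequenced them paired-end, aligned reads to mm39 (GRCm39) with Bowtie2 2.3.5.1 and deposited RSEM 1.3.1 expected counts and TPM for each library. A deposited table of the authors' counts, fold changes and p-values was not used. The 10 genes and all lists were chosen with earlier results of these data known, and motifs partly after a first look. Expected counts were rounded, genes with a total below 10 were removed, and edgeR 4.0.16 (quasi-likelihood test, TMM, replicate number as a block, R 4.3.3) compared the groups, with Benjamini-Hochberg adjustment over all genes tested. Standard errors (SE) of log2 fold changes are not given by that test. They were taken as the size of the log2 fold change over the square root of the test's F statistic. The fitting steps were tested on simulated data. The authors' methods pair the cultures. Across genes, deviations of same-numbered libraries correlated at 0.147, 0.204, 0.0868 and 0.295, and of others at -0.279 to 0.182. Named besides the 10 genes were up to 4 called genes per list and direction by lowest p among those alike in all 4 pairs, plus Slc7a11, Slc7a2, Slc7a6, Slc7a8, Slc38a4, Slc43a2, Atf4, Asns, Eif2ak4, Mtor and Ogt. Slc7a7, Slc7a10, Slc38a9, Slc36a1, Slc38a7, Odc1, Trib3, Psph, Nupr1 and Cth were added after their values were seen. Log2 ratios used TPM with 1 added and exact permutation tests (SciPy 1.17.1). Within-pair differences used scaled counts with 0.5 added. Alternatives were upper-quartile scaling, library totals, DESeq2 1.42.0, other filters, no block, limma 3.58.1 on TPM, removal of a length trend, and leaving out each replicate.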

Additional observations from a re-analysis of the deposited data

Results flagged for a closer look

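Slc7a3 had 87.9 scaled counts in control replicate 2, against 18.3 to 23.0 in the other 3 control libraries. The gap was 0.932 of the group's range, so this library stood far from the others. Of 28 groups of 4 libraries examined, 1 was so marked, where chance alone gives about 1.4. Without replicate 2 the log2 fold change of Slc7a3 was 0.95 (edgeR, adjusted p = 0.291), against 0.42 with it.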

How the results depend on the processing

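Slc3a2 kept its direction and call under every alternative run. The number of the 10 genes called higher was 4 with upper-quartile scaling, DESeq2, no low-count filter or the length trend removed, 1 with limma-trend on TPM (1 or 0.1 added) and 1 to 3 when a replicate was left out. Over all genes, 1623 of 19963 were called higher in the main fit. With upper-quartile scaling 2051 were, with DESeq2 2376, with the length trend removed 2101 and with TPM 1195 (1 added) or 1236 (0.1 added), each of 19963. It was 1978 of 27756 with no low-count filter, and 843 to 1433 when a replicate was left out. The number of the 10 genes called lower was 1 (Slc38a1) with library totals, DESeq2, no low-count filter and both TPM settings, and 0 to 1 when a replicate was left out. Over all genes, 2043 were called lower in the main fit, 2911 with library totals, 2483 with DESeq2 and 2577 with no low-count filter. With TPM 3456 (1 added) or 3473 (0.1 added) were, and 1062 to 1744 when a replicate was left out. Without the replicate block, which the study's pairing set, 2991 of 19963 genes were called, 3 of the 10 among them (Slc3a2, Slc1a4 and Slc1a1). Over all genes, 1905 to 3124 were called when a replicate was left out. Of 140 other list genes, some of them not tested, 35 were called, beside 18.4% of all genes tested. The number was 23 (without replicate 3) to 40 when a replicate was left out. The all-gene median fold change on the log2 scale went from 0.01 to -0.19 with library totals, to 0.13 with upper-quartile scaling, to 0.14 with no low-count filter and to -0.10 (1 added) or -0.23 (0.1 added) with TPM. The share of calls that were higher was 44.3%, but 54.2% with upper-quartile scaling, 51.8% with the length trend removed, 30.1% with library totals and 25.7% or 26.2% with TPM. Signs turned for Slc7a1 (-0.13 with library totals, -0.25 and -0.26 with TPM), Slc38a2 (-0.13, -0.25 and -0.26), Slc1a5 (-0.023 without the block), and Slc7a6 (0.013), Mtor (0.083) and Ogt (0.10) with the length trend removed. When a replicate was left out, Slc38a2 ran from -0.11 (without 4) to 0.35, Slc7a3 from -0.0034 (without 4) to 0.95, Slc1a5 from -0.40 (without 4) to 0.81, Eif2ak4 from -0.69 to 0.0026 (without 1) and Ogt from -0.37 to 0.086 (without 1). The cause was not tested. Of 481 values for 37 other named genes, 436 kept direction and side of the threshold, 31 lost the call, 9 gained it and 5 turned. Slc1a1 (6.45 to 80.4 scaled counts) and Slc7a3 (17.4 to 87.9) had the fewest counts of the 10.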
